A study of Mus musculus with 119 samples.

Results

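The genes described here are the expressed Zfp genes of mouse bone marrow-derived macrophages. They were chosen by symbol and by level: the symbol had to be Zfp followed by digits alone (Zfp36, an RNA-decay factor with another type of finger, was left out), and the mean deposited value over the 6 libraries of unstimulated wild-type (WT) macrophages had to be at least 7. Of 327 such symbols among 18098 genes, 164 met the rule (50.2%), and all 164 were among the 11971 genes that passed the filter on low values (at least log2 of 10 in at least 3 libraries). Their resting WT levels, which chose them, ran from 7.01 to 11.97 with a median of 8.21 on the deposited log2 scale. Just inside the threshold lay Zfp59 at 7.01, Zfp719 at 7.04 and Zfp433 at 7.05, and just outside it Zfp369 and Zfp329, both at 6.94, and Zfp560 at 6.91.

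Zfp genes encode proteins with C2H2 zinc fingers, small domains folded around a zinc ion that are usually strung together and read DNA. Many of them carry a KRAB domain, which recruits the corepressor TRIM28 and, through it, the histone methyltransferase SETDB1, and these repressors are best known for silencing transposable elements. A smaller number act as transcription factors, as RNA-binding proteins or as ubiquitin ligases, and many of the genes lie in tandem arrays.

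The study asked how the kinase TPL-2 and the ERK1/2 pathway below it shape the early transcriptional response to lipopolysaccharide (LPS), the Toll-like receptor 4 agonist of Gram-negative bacteria. TPL-2 is the kinase that activates MKK1/2 and thereby ERK1/2 after LPS, RSK is a kinase activated by ERK, and ELK1 and ELK4 are ERK-regulated ternary complex factors that bind DNA with SRF. RNA sequencing was done on libraries of 25 groups, all from C57BL/6 background macrophages grown from bone marrow in L-cell conditioned medium, and LPS was given at 100 ng/ml. Each library is a separate sample of its group in the labels, which do not say whether same-group libraries came from separate animals, so p-values measure the spread between these libraries.

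WT macrophages were sampled at 0, 0.5 and 1 h of LPS (n = 6 each) and at 2 h (n = 4). Map3k8[D270A] macrophages, which make catalytically inactive TPL-2, were sampled at 0, 0.5, 1 and 2 h (n = 6 each), and Elk1-/-Elk4-/- macrophages, which lack both factors, at the same times (n = 4 each). Nfkb1[SS/AA] macrophages, in which p105 resists the signal-induced proteolysis that frees TPL-2, were sampled at 0, 0.5 and 1 h (n = 6 each). WT macrophages were also treated with 0.1 µM PD0325901, an MKK1/2 inhibitor, added 10 min before LPS for 0.5 or 1 h (n = 6 each), with inhibitor alone for 10, 40 or 70 min and solvent (DMSO) for 10 min (n = 3 each). RSKi47, an RSK inhibitor, was used at 2 µM and added 10 min before 0, 0.5, 1 or 2 h of LPS (n = 4, 3, 4 and 4). The labels name no WT libraries as belonging to any other arm, Map3k8[D270A] included, and there were no solvent libraries with LPS. In a comparison with WT the arm and its experiment therefore cannot be told apart. The alleles are present in the whole animal, so nothing limits their effect to the cultured macrophage.

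All 7 macrophage markers were high in every arm, with group means from 9.83 to 18.5, and all 3 B cell markers were below 3.32 in every group, as were 2 of 3 T cell markers. Elk1 and Elk4 were lower in the Elk1-/-Elk4-/- libraries: resting Elk1 lay at 6.22 to 6.59 against 9.07 to 9.22 in WT, and Elk4 at 5.54 to 5.88 against 7.57 to 7.80. The mutations of Map3k8 and Nfkb1 are point changes, which mRNA levels do not check. The median of all genes tested stayed between 9.03 and 9.09 in every library. Because normalization aligns the libraries, these medians cannot show whether the total mRNA of the cells changed. The transformation behind the deposited values is not stated by the labels or the methods. They were taken as log2, and differences are called log2 differences on that basis. A gene was called at a Benjamini-Hochberg adjusted p below 0.05 in limma, over all genes tested.

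Most expressed Zfp mRNAs fell together between 0.5 and 1 h of LPS and partly recovered by 2 h. In WT macrophages the median over the 164 genes was 8.18 to 8.27 in the 6 resting libraries, 8.14 to 8.25 at 0.5 h, 7.86 to 7.97 at 1 h and 8.05 to 8.14 at 2 h. The 1 h libraries lay below every library of the other times, and the 2 h libraries lay between the 1 h and the resting ones. Because the resting WT libraries chose the genes, the difference from 0 h is a description only: its median was 0.02 at 0.5 h, -0.35 at 1 h and -0.16 at 2 h. Comparisons among WT libraries that the choice did not use could be tested. From 0.5 to 1 h, 116 Zfp genes were lower and 21 were higher, where 20.4% of all genes tested were lower and 20.6% were higher, and the median difference was -0.36 against 0.01 over all genes. From 1 to 2 h the balance turned, with 88 Zfp genes higher and 42 lower, against 33.7% and 32.2% of all genes.

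**Figure D1:**
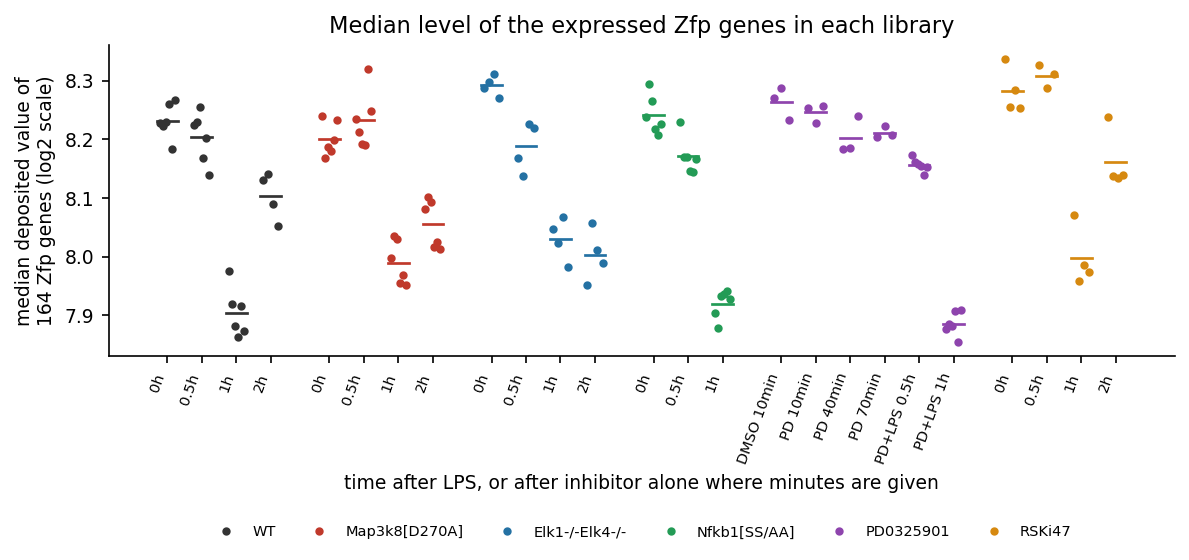
Median deposited value (log2 scale, vertical axis) of the 164 Zfp genes in every library, by arm and time (horizontal axis). Points are libraries and bars are group means. In each arm the 1 h LPS libraries lie below that arm's libraries without LPS.

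A fall of the median at 1 h, by 0.22 to 0.40, was also measured in the 5 arms whose own libraries without LPS played no part in the choice of genes. In Map3k8[D270A] macrophages the library medians were 8.17 to 8.24 at rest and 7.95 to 8.03 at 1 h, and the 2 sets did not overlap. At 1 h of LPS, 103 Zfp genes were lower (20.5% of all genes) and 25 were higher (22.5%), with a median of -0.22 against 0.00. In Elk1-/-Elk4-/- macrophages 110 were lower (17.2% of all genes) and 19 were higher (17.1%), with a median of -0.32 against -0.01. In Nfkb1[SS/AA] macrophages 122 were lower (21.9%) and 23 were higher (22.5%), with a median of -0.34. With PD0325901, against the inhibitor alone for 70 min, 111 were lower (21.7%) and 24 were higher (21.9%), with a median of -0.40. With RSKi47 102 were lower (14.0%) and 16 were higher (15.0%), with a median of -0.26. Among the 9220 tested genes whose resting WT mean was also at least 7, 21.2% were lower in the Map3k8[D270A] comparison and 17.3% in the Elk1-/-Elk4-/- comparison. Genes matched to the members in level were not compared.

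**Figure D2:**
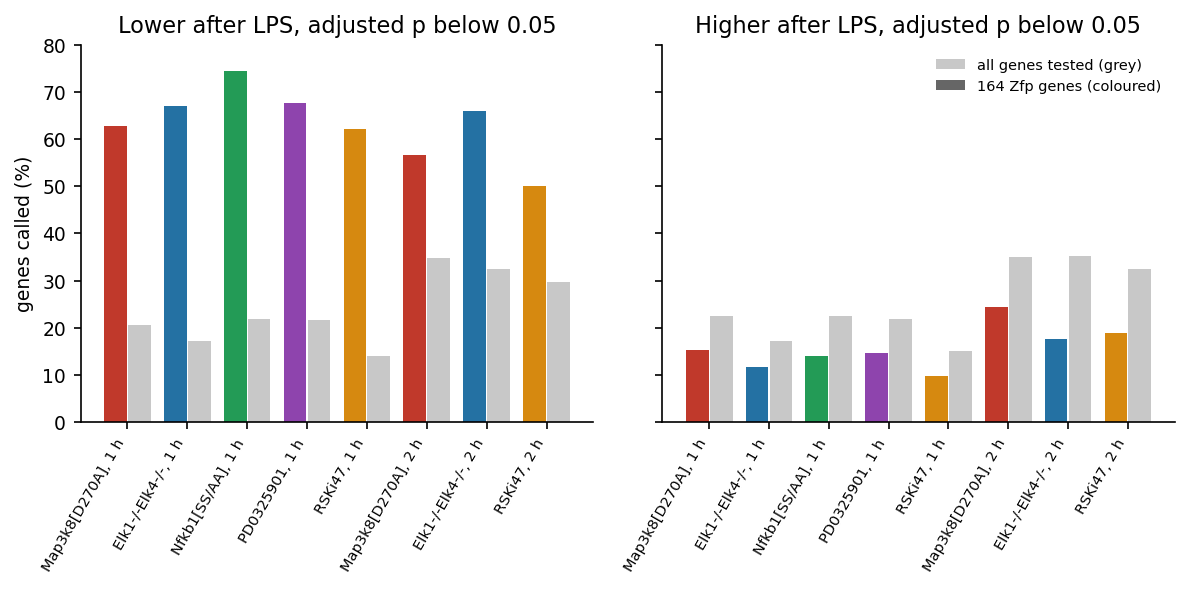
Share of genes called at an adjusted p below 0.05 (vertical axis, %) at 1 and 2 h of LPS in 5 arms, lower on the left and higher on the right. Coloured bars are the 164 Zfp genes and grey bars all genes tested. In each comparison shown the Zfp genes were lower more often, and higher less often, than the genes tested as a whole: at 1 h in Map3k8[D270A] macrophages 62.8% were lower, against 20.5%.

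The 5 arms share no library with each other at 1 h, so they can be set side by side. All 5 called 85 Zfp genes lower (51.8%, against 9.83% of all genes), and 11 higher (6.71%, against 10.3%). Those 11 were Zfp131, Zfp263, Zfp275, Zfp429, Zfp516, Zfp62, Zfp622, Zfp703, Zfp719, Zfp800 and Zfp948. Across the 164 genes the 1 h differences of any 2 arms had a Pearson r of 0.935 to 0.967, a description over genes, which are not independent replicates. WT libraries, which these calls did not use, gave the same direction: of the 85 genes, 84 were lower at 1 than at 0.5 h (98.8%), and all 11 of the others were higher. This is close to the share among genes of any kind called in the 5 arms, of which 96.2% of the lower and 92.4% of the higher ones moved the same way in WT. From 1 to 2 h in WT, 60 of the 85 rose (70.6%) and 11 fell further, whereas of the 1177 genes of any kind lower in the 5 arms 40.1% rose and 36.4% fell further. Of the 11, 7 fell again (63.6%), against 26.9% of the 1238 genes of any kind that were higher in the 5 arms.

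The depth of the fall differed among the genes. A fall of at least 2-fold in all 5 arms was measured for 6 genes, Zfp12, Zfp157, Zfp324, Zfp472, Zfp526 and Zfp60, where 33 of all genes tested (0.276%) fell as far in all 5. The number past 2-fold at 1 h was 9 lower and 3 higher in Map3k8[D270A] (0.601% and 2.80% of all genes), 13 and 3 in Elk1-/-Elk4-/- (0.777% and 2.71%), 20 and 3 in Nfkb1[SS/AA] (0.969% and 2.61%), 13 and 3 with PD0325901 (1.36% and 2.99%) and 9 and 3 with RSKi47 (0.451% and 2.35%). Zfp60 lay at 7.41 to 7.57 (median 7.44) in the 6 resting Map3k8[D270A] libraries and at 5.71 to 6.06 (median 5.82) at 1 h. The groups stood more than 1 log2 unit apart, and the difference was -1.62 ± 0.07 (SE, limma adjusted p = 6.90e-41). In Elk1-/-Elk4-/- libraries Zfp60 was 7.59, 7.73, 7.43 and 7.63 at rest and 5.77, 5.80, 5.99 and 5.87 at 1 h, a difference of -1.73 ± 0.08 (adjusted p = 3.65e-36). Zfp60 had then risen to 6.82 to 7.07 (median 6.90) at 2 h in Map3k8[D270A] libraries, still short of every resting library. In WT it rose by 1.16 ± 0.07 from 1 to 2 h (adjusted p = 7.14e-27).

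Zfp157 fell from 7.56 to 7.72 (median 7.66) at rest to 5.81 to 6.22 (median 6.01) at 1 h in Map3k8[D270A] libraries, a difference of -1.63 ± 0.08 (adjusted p = 1.17e-35 in limma). With PD0325901 it lay at 7.33, 7.44 and 7.49 with inhibitor alone and at 5.42 to 5.68 (median 5.55) after 1 h of LPS, a difference of -1.85 ± 0.10 (adjusted p = 4.08e-33). Neither pair of groups overlapped. Zfp472 gave -1.62 ± 0.08 in Map3k8[D270A] (adjusted p = 1.87e-36) and -1.34 ± 0.09 with RSKi47 (adjusted p = 6.14e-24), where its 4 libraries moved from 7.21, 6.91, 7.10 and 6.86 to 5.74, 5.69, 5.61 and 5.67. Zfp12 moved from 7.91 to 8.11 in resting Nfkb1[SS/AA] libraries to 6.19 to 6.62 at 1 h, a difference of -1.55 ± 0.06 (adjusted p = 1.68e-42).

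At 0.5 h fewer Zfp genes were called than at 1 h in each of the 5 arms, and none of them reached a 2-fold difference. In Map3k8[D270A] macrophages 5 were lower (1.34% of all genes) and 11 higher (4.27%), and with RSKi47 3 were lower (1.70%) and 12 higher (3.39%). Elk1-/-Elk4-/- macrophages had 26 lower (2.05%) and 4 higher (3.32%), Nfkb1[SS/AA] macrophages 35 lower (6.07%) and 24 higher (8.55%), and the PD0325901 arm, against inhibitor alone for 40 min, 17 lower (5.56%) and 14 higher (9.38%). Zfp866 and Zfp87 were lower in all 5 arms at this time (1.22%, against 0.393% of all genes), and Zfp703 and Zfp719 were higher (1.22%, against 1.77%). Zfp87 went from between 7.98 and 8.06 in the 4 resting libraries to 7.26, 7.16, 7.43 and 7.19 in Elk1-/-Elk4-/- libraries, a difference of -0.76 ± 0.09 (limma adjusted p = 1.16e-11). Of the 50-base stretches in Zfp87 transcripts 9.59% occur in another gene, and 298 exonic bases overlap another gene on the same strand, so part of its reads may belong elsewhere.

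The genes that rose at 1 h were led by Zfp719, Zfp263 and Zfp131. Zfp719, which lies at chr7:43579559-43593710 (GRCm38), was 6.92 to 7.22 (median 7.03) in resting WT libraries and 8.82 to 8.96 (median 8.87) at 1 h. At 0.5 h its WT libraries fell into 2 sets that follow the replicate numbers, 7.36 to 7.44 in replicates 4 to 6 and 7.85 to 8.08 in replicates 7 to 9. At 2 h it was at 8.10, 7.94, 8.25 and 8.28, still above every resting library, a difference of -0.74 ± 0.08 from 1 h (limma adjusted p = 4.80e-15). Map3k8[D270A] libraries went from 7.03 to 7.11 (median 7.06) at rest to 8.55 to 8.72 (median 8.68) at 1 h, a difference of 1.59 ± 0.07 (adjusted p = 3.66e-39). The rise was 1.56 ± 0.08 in Elk1-/-Elk4-/-, 1.31 ± 0.07 in Nfkb1[SS/AA], 1.98 ± 0.08 with PD0325901 and 1.95 ± 0.08 with RSKi47 macrophages. The PD0325901 value is against inhibitor alone for 70 min, where Zfp719 itself differed by -0.63 from inhibitor alone for 10 min. After 1 h of LPS its level with PD0325901 differed from WT by -0.47.

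Zfp263, a transcription factor gene, had one of the highest levels per kilobase of exon among the 164 at rest (9.11 on the log2 scale, second to Zfp91 at 9.25), and it lies at chr16:3744099-3750790. It was 10.97, 10.83, 10.95 and 11.02 in resting Elk1-/-Elk4-/- libraries and 12.36, 12.30, 12.35 and 12.38 at 1 h, a difference of 1.40 ± 0.08 (limma adjusted p = 4.71e-31). All 4 libraries at 1 h lay above all 4 at rest, and at 2 h they were still at 12.11, 12.31, 12.23 and 12.13. In WT its 1 h libraries fell into the same 2 sets of replicate numbers, 12.60 to 12.72 in replicates 4 to 6 and 12.16 to 12.31 in replicates 7 to 9, and at 2 h replicates 4 to 7 were 12.44, 12.44, 12.46 and 12.22, each below its own 1 h library. The difference from 1 to 2 h was -0.07 ± 0.07 (adjusted p = 0.426), and -0.12 with the replicate number as a block (adjusted p = 0.0378). Zfp131, a BTB domain factor gene, rose from 9.02 to 9.20 (median 9.13) to 10.03 to 10.46 (median 10.23) in Map3k8[D270A] libraries, a difference of 1.12 ± 0.07 (adjusted p = 1.19e-28). It had fallen by 2 h in WT, by 0.28 ± 0.08 (adjusted p = 0.000676). Its WT libraries at 1 h were also split, 10.52 to 10.60 in replicates 4 to 6 and 10.05 to 10.30 in replicates 7 to 9. The 2 h libraries are replicates 4 to 7 only, so the size of this fall depends on the split.

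**Figure D3:**
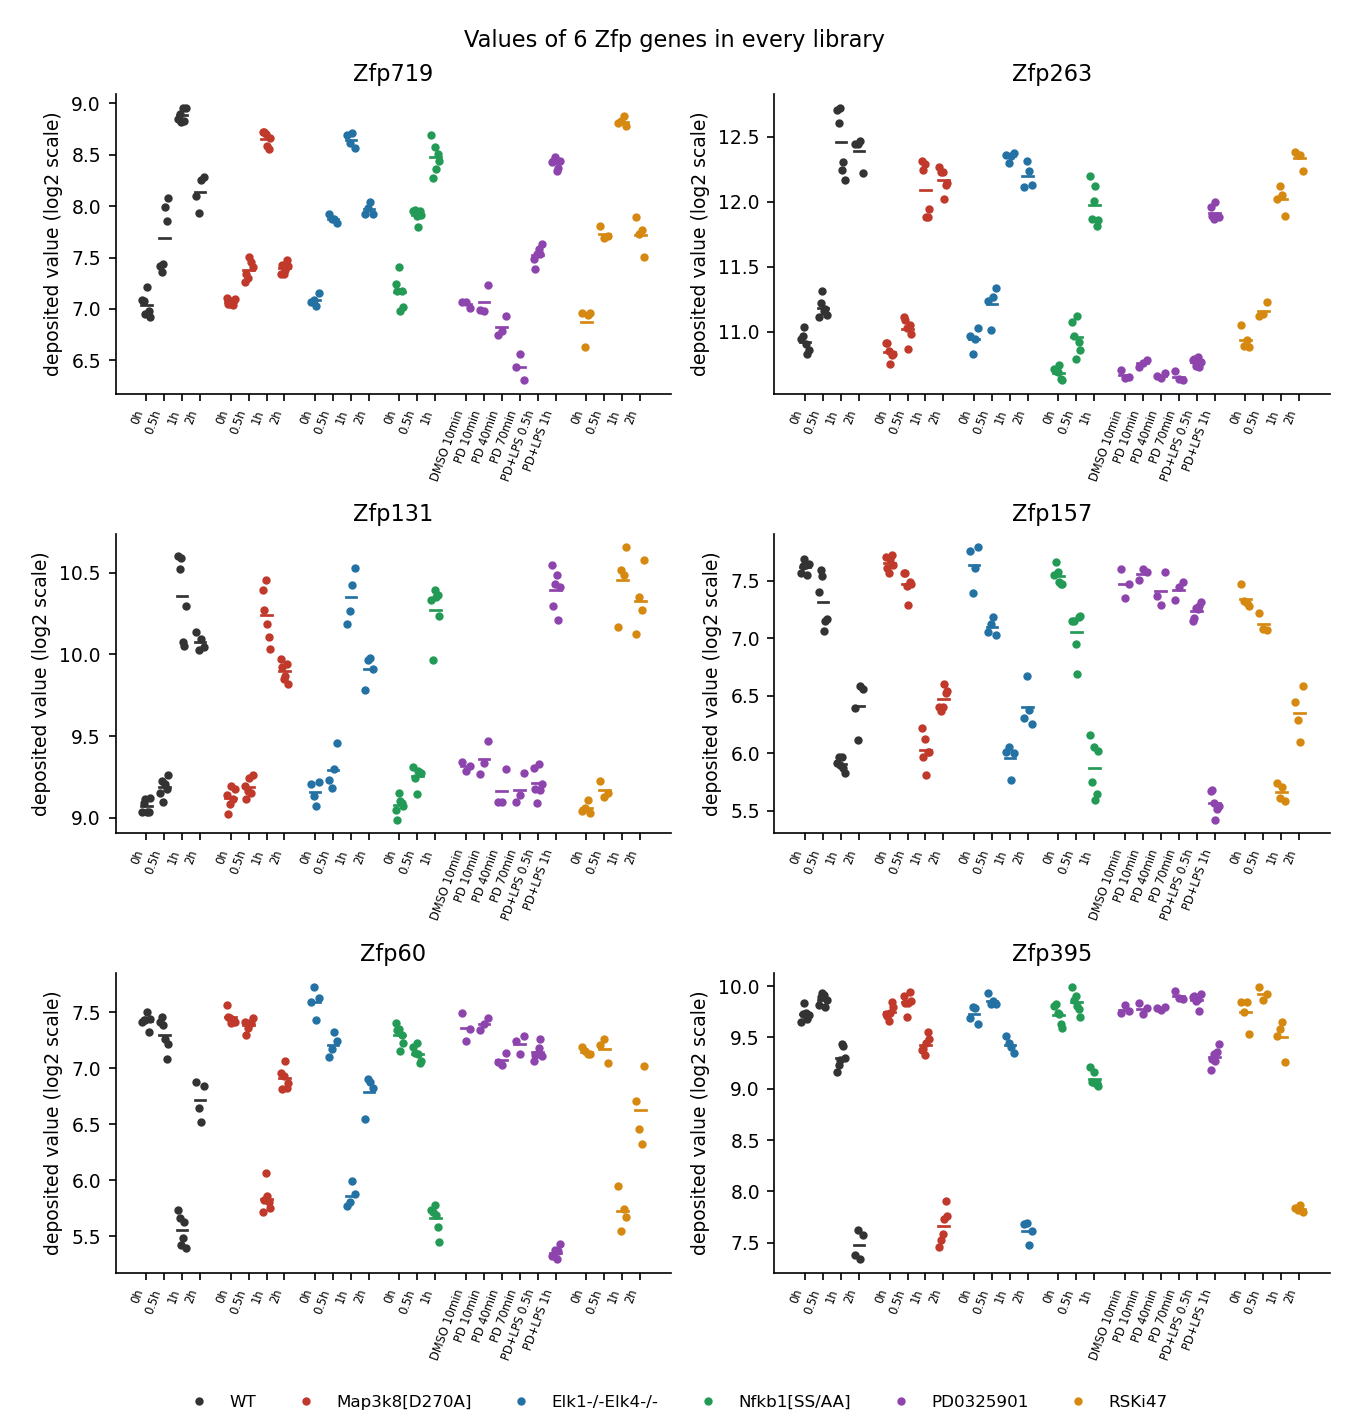
Deposited value (log2 scale, vertical axis) of Zfp719, Zfp263, Zfp131, Zfp157, Zfp60 and Zfp395 in every library, by arm and time (horizontal axis). Points are libraries, bars are group means and each panel has its own vertical range. Zfp719 peaks at 1 h, Zfp263 stays high at 2 h, Zfp157 and Zfp60 are lowest at 1 h and Zfp395 is lowest at 2 h.

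By 2 h the median fall was smaller than at 1 h in Map3k8[D270A] and RSKi47 macrophages and the same in Elk1-/-Elk4-/- macrophages (-0.32 at both times). Against their own libraries at 0 h, 93 Zfp genes were lower in Map3k8[D270A] (34.9% of all genes) and 40 higher (35.1%), with a median of -0.18 against -0.01. Elk1-/-Elk4-/- macrophages had 108 lower (32.5%) and 29 higher (35.3%) with a median of -0.32, and the RSKi47 arm 82 lower (29.7%) and 31 higher (32.5%) with a median of -0.14. Past 2-fold were 6 lower and 4 higher in Map3k8[D270A] (2.17% and 6.99%), 10 and 5 in Elk1-/-Elk4-/- (2.90% and 7.27%) and 5 and 5 with RSKi47 (1.69% and 5.60%). In all 3 arms 74 Zfp genes were lower (45.1%, against 23.1% of all genes) and 19 were higher (11.6%, against 26.0%). From 1 to 2 h, 77 rose and 49 fell in Map3k8[D270A] (32.7% and 29.7% of all genes), 65 rose and 50 fell in Elk1-/-Elk4-/- (34.9% and 27.6%), and 76 rose and 44 fell with RSKi47 (29.3% and 24.4%). The Elk1-/-Elk4-/- library medians were 7.98 to 8.07 at 1 h and 7.95 to 8.06 at 2 h, ranges that overlapped, whereas those of WT did not.

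Zfp395, at chr14:65358676-65398930, had a different time course and the deepest fall of the 164 in each of the 3 arms besides WT with 2 h libraries. It was 9.66 to 9.85 (median 9.73) in resting Map3k8[D270A] libraries, 9.33 to 9.55 at 1 h and 7.45 to 7.91 (median 7.66) at 2 h. Elk1-/-Elk4-/- libraries went from 9.69, 9.80, 9.78 and 9.63 to 7.68, 7.69, 7.48 and 7.62 at 2 h. Zfp395 was already called lower than rest at 1 h in all 3 arms, but most of the drop came between 1 and 2 h. That step was -1.77 in Map3k8[D270A], -1.81 in Elk1-/-Elk4-/- and -1.67 with RSKi47. In the first 2 of these arms no 2 h library came within 1 log2 unit of a resting one. The differences were -2.08 ± 0.05 in Map3k8[D270A] (limma adjusted p = 8.01e-59), -2.11 ± 0.07 in Elk1-/-Elk4-/- (adjusted p = 2.76e-51) and -1.91 ± 0.07 with RSKi47 (adjusted p = 1.03e-47). Zfp41 differed by -1.32 ± 0.07 and Zfp316 by -1.22 ± 0.06 in Map3k8[D270A] macrophages (adjusted p = 6.46e-32 and 3.76e-33). Zfp810 differed by -1.49 ± 0.08 in Elk1-/-Elk4-/- macrophages (adjusted p = 3.43e-33), from 7.33, 7.21, 7.36 and 7.30 to 5.87, 5.67, 6.04 and 5.67.

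Members higher at 2 h but not at 1 h numbered 23 in Map3k8[D270A], 19 in Elk1-/-Elk4-/- and 22 with RSKi47 (14.0%, 11.6% and 13.4%, against 17.8%, 22.1% and 20.4% of all genes). Zfp800, already higher at 1 h, went on rising. It was 9.13, 8.88, 9.02 and 9.17 at rest in Elk1-/-Elk4-/- libraries, 9.55, 9.69, 9.80 and 9.78 at 1 h and 10.95, 11.02, 10.88 and 10.85 at 2 h, a rise over rest of 1.88 ± 0.10 (limma adjusted p = 4.88e-32). Its 3 time groups followed one another without overlap. In Map3k8[D270A] the same comparison gave 1.34 ± 0.08 (adjusted p = 4.10e-28). Zfp319 first fell and then overshot: WT libraries lay at 7.84 to 8.14 (median 7.97) at 1 h and at 9.63, 9.81, 9.59 and 9.40 at 2 h, a rise of 1.65 ± 0.08 (adjusted p = 1.68e-35). Zfp949 rose by 1.20 ± 0.07 in Elk1-/-Elk4-/- macrophages at 2 h (adjusted p = 2.72e-29).

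**Figure D4:**
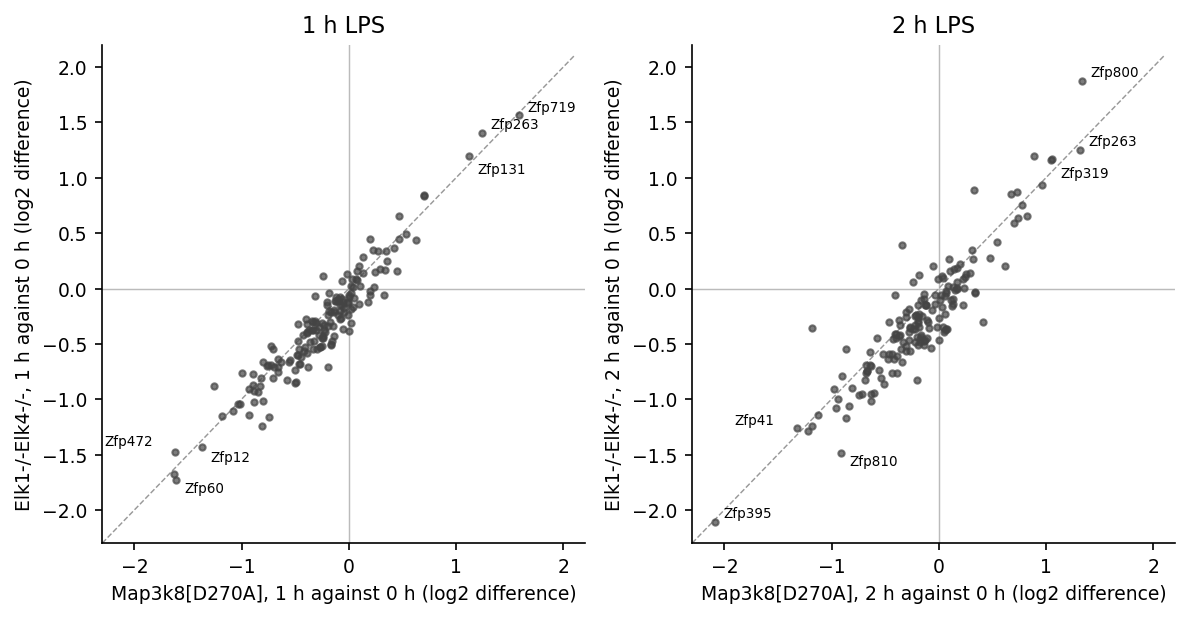
Log2 difference from 0 h of the 164 Zfp genes in Map3k8[D270A] (horizontal axis) and Elk1-/-Elk4-/- macrophages (vertical axis) at 1 h and 2 h of LPS. Each point is a gene and the dashed line marks equal differences. At 2 h more points lie below the line than above it: the median was -0.18 in Map3k8[D270A] and -0.32 in Elk1-/-Elk4-/- macrophages.

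Members with established roles were counted apart, with no test of their difference from the rest. Of 15 known for chromatin or general transcription, 4 were lower and 3 higher at 1 h in Map3k8[D270A] macrophages, where 20.5% and 22.5% of all genes were, with a median of -0.01. In the other arms more of the 15 were lower at 1 h: 9 in Elk1-/-Elk4-/- (3 higher, median -0.19), 9 in Nfkb1[SS/AA] (2 higher, median -0.25), 8 with PD0325901 (3 higher, median -0.17) and 6 with RSKi47 (2 higher, median -0.12), where 17.2%, 21.9%, 21.7% and 14.0% of all genes were lower. At 2 h in Map3k8[D270A] 3 were lower and 8 higher, against 34.9% and 35.1% of all genes. The 142 members with no role assigned here had 97 lower and 21 higher at 1 h in Map3k8[D270A], with a median of -0.27. Zfp217, whose product works with the LSD1 and CoREST corepressors, was 10.46, 10.50, 10.40 and 10.35 at rest in Elk1-/-Elk4-/- libraries, 10.00, 10.10, 10.16 and 9.99 at 1 h and 11.09, 11.15, 10.99 and 11.12 at 2 h. It was thus lowest at 1 h and highest at 2 h, with differences from rest of -0.36 ± 0.06 (limma adjusted p = 3.50e-07) and 0.66 ± 0.06 (adjusted p = 1.83e-17). Zfp281, a pluripotency factor, rose by 1.04 ± 0.06 at 2 h in Map3k8[D270A] (adjusted p = 1.05e-28). Zfp143, whose product binds a motif of many housekeeping promoters, rose by 0.29 ± 0.04 (adjusted p = 1.02e-08). Zfp809, known for silencing murine leukaemia virus in embryonic stem cells, fell by 0.34 ± 0.06 in Map3k8[D270A] (adjusted p = 8.21e-07) and by 0.67 ± 0.08 in Elk1-/-Elk4-/- macrophages (adjusted p = 3.68e-13). Zfp445, which helps maintain genomic imprints, rose by 0.23 ± 0.05 in the first arm (adjusted p = 2.36e-05) and fell by 0.15 ± 0.06 in the second (adjusted p = 0.0229).

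Of the 7 members that act in RNA, ribosome, ubiquitin or spindle biology, 2 were lower and 1 was higher at 1 h in Map3k8[D270A] macrophages, and 3 were lower and 4 higher at 2 h, numbers too small to set apart from the shares of all genes (20.5% and 22.5% at 1 h, 34.9% and 35.1% at 2 h). Zfp622, a factor of 60S ribosomal subunit maturation, was 9.83 to 9.93 (median 9.88) at rest and 10.46 to 10.66 (median 10.59) at 1 h, without overlap, a rise of 0.70 ± 0.05 (limma adjusted p = 3.29e-25). By 2 h it had fallen to 9.94 to 10.29 (median 10.10), still above every resting library and still called higher than rest. Zfp598, the ubiquitin ligase that senses collided ribosomes, rose at 2 h by 0.70 ± 0.06 (adjusted p = 5.63e-19), and Zfp207, a kinetochore protein gene, by 0.20 ± 0.04 (adjusted p = 3.62e-07). Zfp91, a ubiquitin ligase gene, fell by 0.31 ± 0.03 (adjusted p = 5.81e-15), and Zfp106, an RNA-binding protein gene, by 0.22 ± 0.04 (adjusted p = 6.52e-06).

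The corepressors that KRAB zinc finger proteins recruit were counted at both times, when 42.9% (1 h) and 70.0% (2 h) of all genes were called in Map3k8[D270A] macrophages. Of 10 listed genes, 5 were lower and 1 was higher at 1 h, with a median of -0.11, and at 2 h 6 were lower and 3 higher, with a median of -0.24. At 2 h Setdb1 fell by 0.80 ± 0.03 (limma adjusted p = 1.40e-39), Atf7ip, which stabilizes SETDB1, by 0.82 ± 0.06 (adjusted p = 6.31e-22) and Trim28 by 0.29 ± 0.04 (adjusted p = 7.59e-11). Chd4, Hdac1 and Hdac2, subunits of the NuRD complex, rose by 0.33 ± 0.04, 0.24 ± 0.03 and 0.26 ± 0.04 (adjusted p = 1.30e-10, 5.09e-10 and 3.60e-08). Other zinc finger families were counted for comparison. Of 9 Zkscan genes 8 were lower and 1 was higher at 1 h in Map3k8[D270A], of 9 Zscan genes 6 were lower and 1 higher, and of 40 Zbtb genes, which pair the fingers with a BTB domain, 19 were lower and 11 higher, with a median of -0.07, where 20.5% of all genes were lower and 22.5% higher.

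The 164 genes were all found in the RefSeq annotation of GRCm38.p6, on 20 chromosomes, with 37 on chromosome 7, 19 on chromosome 17 and 14 on chromosome 8. With members at most 200 kb apart joined, 56 lay in 15 clusters of 3 or more. In these clusters 39 of 56 genes were lower in all 5 arms at 1 h (69.6%, against 9.83% of all genes), with a median of -0.39 in Map3k8[D270A], and elsewhere 46 of 108 (42.6%), with a median of -0.15. These shares are descriptions and were not tested, since neighbouring genes are not independent. The cluster at chr17:32765496-33005457 holds Zfp871, Zfp799, Zfp472 and Zfp952, and all 4 were lower in the 5 arms. That at chr7:29768552-30169775 holds Zfp84, Zfp790, Zfp74, Zfp568, Zfp260 and Zfp146, of which 5 were lower. The cluster at chr13:67339309-67729178, with Zfp953, Zfp429, Zfp87, Zfp748, Zfp738 and Zfp65, had 4 lower and 1 higher, the latter being Zfp429. Near copies can exchange reads: 12 members shared at least 20% of their 50-base stretches with transcripts of another gene, led by Zfp935 at 100% and Zfp433 at 94.2%, while 73 shared none. Without those 12, 78 of 152 were lower in all 5 arms (51.3%). Zfp429, at 25.3%, is among the 12, and its rise is uncertain for that reason. Exons of 11 members overlapped another gene on the same strand and those of 37 on the opposite strand, and neither labels nor methods state the strand setting of the counting step.

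Because the members moved together, and ELK1 and ELK4 are ETS-domain factors, their promoters were searched for CCGGAAGT, an ETS-type motif, on both strands of the 300 bases from 250 before to 50 after a RefSeq gene start. A promoter was given for 135 members, and 19 held the motif (14.1%), against 1164 of 27025 genes (4.31%). Among genes tested whose resting WT mean was at least 7, as for the members, 768 of 7211 held it (10.7%), closer to the members' share. It was held by 11 of 69 such members that were lower in all 5 arms and by 1 of 9 that were higher. The motif of ZNF143 was in 3 members (2.22%, against 0.322% of all genes and 0.901% at the members' level), and the CArG box bound by SRF was in 2 (1.48%, against 1.81% and 1.53%). The promoters of 3 members that hold CCGGAAGT are shown, 1 that rose (Zfp263), 1 of the deepest falls at 1 h (Zfp60) and 1 of the deepest at 2 h, with 2 matches (Zfp316). Capitals mark the motif as it reads on the gene's strand, and a match describes letters in this window, not a site in use.
Zfp263, chr16:3743849-3744148, plus strand: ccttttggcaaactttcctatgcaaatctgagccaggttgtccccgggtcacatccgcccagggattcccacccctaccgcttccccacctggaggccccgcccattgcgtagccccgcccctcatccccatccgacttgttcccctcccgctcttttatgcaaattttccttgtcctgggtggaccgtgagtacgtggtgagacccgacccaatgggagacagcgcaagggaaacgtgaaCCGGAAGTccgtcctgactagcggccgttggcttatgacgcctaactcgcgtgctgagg
Zfp60, chr7:27731159-27731458, plus strand: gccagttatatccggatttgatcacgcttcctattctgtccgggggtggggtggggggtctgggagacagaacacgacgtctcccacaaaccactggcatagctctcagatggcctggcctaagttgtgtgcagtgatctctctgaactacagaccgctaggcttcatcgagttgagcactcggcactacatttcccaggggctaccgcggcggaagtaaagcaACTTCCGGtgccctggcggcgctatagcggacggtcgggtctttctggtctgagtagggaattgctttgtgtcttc
Zfp316, chr5:143269973-143270272, minus strand: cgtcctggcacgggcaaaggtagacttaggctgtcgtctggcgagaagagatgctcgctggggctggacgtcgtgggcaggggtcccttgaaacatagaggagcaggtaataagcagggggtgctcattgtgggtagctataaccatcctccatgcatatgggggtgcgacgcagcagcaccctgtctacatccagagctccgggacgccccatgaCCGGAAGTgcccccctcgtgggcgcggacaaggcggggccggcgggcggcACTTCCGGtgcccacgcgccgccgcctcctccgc

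Against WT at the same time of LPS, the share of Zfp genes called was in several comparisons near that of all genes: in either direction 28.0% against 28.9% in Map3k8[D270A] at 2 h, 47.0% against 46.4% in Elk1-/-Elk4-/- at 0.5 h, 40.9% against 42.5% in Nfkb1[SS/AA] at 1 h, 36.6% against 35.7% with PD0325901 at 1 h and 44.5% against 48.2% with RSKi47 at 0.5 h. These comparisons share the WT libraries with each other, so their values are given side by side and not as independent results. In Map3k8[D270A] macrophages 2 Zfp genes were lower at 0.5 h (1.11% of all genes) and 0 were higher (0.727%) in limma, while 19 members had an unadjusted p under 0.05 in either direction. At 1 h 6 were lower (4.80%) and 64 higher (5.87%), with a median of 0.11 against 0.00 over all genes. In no member did that difference reach 2-fold. WT replicates 4 to 6 were also set against Map3k8[D270A] replicates 1 to 3, and WT 7 to 9 against Map3k8[D270A] 4 to 6. The labels do not tie these numbers together, so these replicate sets are an assumption made here. Within the first set 5 were lower and 48 higher (5.04% and 5.25% of all genes). Within the second 4 were lower and 16 higher (1.96% and 1.93%). At 2 h 23 were lower (13.6%) and 23 higher (15.3%), and within the sets 20 lower and 30 higher (13.8% and 18.7%), and 8 lower and 6 higher (6.03% and 3.59%) with the single WT library of the second set. Without WT replicate 4 at 2 h 14 were lower and 22 higher, and without WT replicate 6 19 and 15. The share of all genes was not taken in these refits, so their balance cannot be set against it.

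Zfp719 had the largest negative difference of Map3k8[D270A] from WT macrophages at 2 h. Its 4 WT libraries were 8.10, 7.94, 8.25 and 8.28 and its 6 Map3k8[D270A] libraries 7.34 to 7.48 (median 7.40), every one below every WT library. The difference was -0.74 ± 0.08 (limma adjusted p = 7.12e-14), and it was -0.72 and -0.86 within the replicate sets. At 0.5 h the difference was -0.31 ± 0.07, with Map3k8[D270A] libraries at 7.27 to 7.51 overlapping WT replicates 4 to 6 and below replicates 7 to 9. It was -0.10 within the first replicate set and -0.52 within the second. Zfp703, of the NET family of transcriptional corepressors, lay at 10.57, 10.78, 10.81 and 10.48 in WT and at 10.04 to 10.32 (median 10.17) in Map3k8[D270A] libraries at 2 h, a difference of -0.50 ± 0.05 (adjusted p = 1.01e-12). Within the sets this was -0.66 and -0.21, the latter with an adjusted p of 0.141. Zfp715 was lower by 0.36 ± 0.07, and Zfp362, Zfp639 and Zfp810 were higher by 0.30 ± 0.05, 0.28 ± 0.05 and 0.28 ± 0.07. These were the largest rises among members called with no overlap of libraries. Zfp324 had the largest positive difference of all members, 0.59, but did not meet that rule. For Zfp810 the sets gave 0.23 and 0.33, the latter with an adjusted p of 0.101.

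Elk1-/-Elk4-/- macrophages had 39 Zfp genes lower and 38 higher than WT at 0.5 h (22.9% and 23.5% of all genes), 33 lower and 76 higher at 1 h (26.9% and 28.3%) and 54 lower and 43 higher at 2 h (23.8% and 28.7%). The median difference was 0.11 at 1 h and -0.02 at 2 h. Zfp324 was the only member called past 2-fold against WT at 2 h (1.12% of all genes were higher by as much): its 2 h values were 7.60, 7.54, 7.49 and 7.72 in Elk1-/-Elk4-/- and 6.48, 6.68, 6.36 and 6.19 in WT libraries, with no overlap, a difference of 1.16 ± 0.10 (limma adjusted p = 5.94e-19). Zfp629 was 7.15, 7.18, 6.96 and 7.30 against 8.17, 8.14, 8.01 and 7.82, a difference of -0.89 ± 0.10 (adjusted p = 3.07e-12), and it was already lower at rest, at 6.97 to 7.30 against 7.71 to 8.05 in WT. Zfp703 was lower by 0.82 ± 0.06 and Zfp142 by 0.66 ± 0.07, and Zfp800 and Zfp120 were higher by 0.62 ± 0.10 and 0.62 ± 0.06. At rest the differences from WT were 0.44 for Zfp120, 0.13 for Zfp800, -0.16 for Zfp703, -0.16 for Zfp142 and -0.13 for Zfp324. The Elk1-/-Elk4-/- libraries also had higher neutrophil marker levels: the summed level of the 7 neutrophil markers was 9.67 to 10.64 there and 6.00 to 7.47 in WT, with S100a9 as the highest marker and 3 of 7 markers, Ly6g among them, below 3.32 in every Elk1-/-Elk4-/- group. The part of these markers in the differences was not tested, and in bulk RNA fewer cells of a type and less RNA per cell cannot be told apart.

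In Nfkb1[SS/AA] macrophages 34 Zfp genes were lower and 12 higher than WT at 0.5 h (15.6% and 16.7%), and 38 lower and 29 higher at 1 h (21.9% and 20.5%). Without replicate 2 at 1 h, a library that stood apart from its group, the 1 h split turned to 29 lower and 33 higher (20.7% and 19.1%). Zfp46 was 7.39 to 7.54 (median 7.50) in Nfkb1[SS/AA] and 7.86 to 8.12 (median 7.99) in WT libraries at 1 h, without overlap, a difference of -0.52 ± 0.05 (limma adjusted p = 1.40e-14). Zfp292 and Zfp451 were lower by 0.50 ± 0.08 and 0.49 ± 0.05, and Zfp319, Zfp709 and Zfp472 were higher by 0.53 ± 0.07, 0.42 ± 0.06 and 0.39 ± 0.08. At rest Zfp46 was higher than in WT by 0.29, and Zfp292 and Zfp451 differed by -0.15 and -0.16. The 1 h difference of Zfp292 was -0.28 against WT replicates 4 to 6 and -0.71 against WT replicates 7 to 9.

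With PD0325901 the shift went down. At 0.5 h 39 Zfp genes were lower than WT and 1 was higher (15.0% and 14.5% of all genes), and at 1 h 45 were lower and 15 higher (19.3% and 16.4%), with a median of -0.05 against -0.01. Zfp263 was 11.91 ± 0.05 (SD, n = 6) with the inhibitor, lowest 11.87 and median 11.89, and lay at 12.16 to 12.72 (median 12.45) in WT at 1 h, each WT library above each inhibitor library, a difference of -0.54 ± 0.06 (limma adjusted p = 1.10e-11). It was -0.76 against WT replicates 4 to 6 and -0.33 against WT replicates 7 to 9. Zfp719 was lower by 0.47 ± 0.07 and Zfp292 by 0.42 ± 0.08, and Zfp319, Zfp275 and Zfp639 were higher by 0.37 ± 0.07, 0.22 ± 0.06 and 0.18 ± 0.04. Against the 2 WT sets Zfp292 differed by -0.20 and -0.63 and Zfp275 by 0.12 and 0.31. Part of these offsets was there without LPS, and for most of these genes without inhibitor too. Zfp263 averaged 10.67 with DMSO and 10.65 with 70 min of inhibitor against 10.92 in resting WT libraries, Zfp275 10.07 and 10.03 against 9.81, Zfp319 9.05 and 9.14 against 8.86, and Zfp292 9.17 and 9.26 against 9.35. For Zfp719 the means were 7.05 with DMSO, 6.43 with 70 min of inhibitor and 7.04 in resting WT. Without LPS, 10 min of inhibitor gave 0 calls among all genes against DMSO in limma, with 245 genes, 4 of them Zfp genes, at an unadjusted p below 0.05. Between 10 and 70 min of inhibitor alone 26 Zfp genes fell (3.47%) and 5 rose (2.62%), the largest fall being that of Zfp719, from 6.99, 6.98 and 7.23 to 6.43, 6.56 and 6.31, a difference of -0.63 (adjusted p = 6.50e-07).

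With RSKi47 30 Zfp genes were lower than WT and 43 higher at 0.5 h (24.5% and 23.7%), 28 and 73 at 1 h (26.3% and 26.5%) and 29 and 50 at 2 h (24.6% and 27.5%). The 2 h split was 37 lower and 41 higher with each library centred on its median (28.2% and 23.7% of all genes). Zfp719 was 7.90, 7.73, 7.77 and 7.50 at 2 h, below the 4 WT libraries, a difference of -0.42 ± 0.08 (limma adjusted p = 1.59e-05). Zfp330 and Zfp146 were lower by 0.41 ± 0.04 and 0.38 ± 0.06, and Zfp324, Zfp628 and Zfp275 were higher by 0.67 ± 0.10, 0.51 ± 0.07 and 0.40 ± 0.07. Part of these offsets was there without LPS: at 0 h the arm differed from resting WT by 0.54 for Zfp628, 0.40 for Zfp275, -0.32 for Zfp330, -0.16 for Zfp146 and -0.17 for Zfp719, and by -0.18 for Zfp324, against its direction at 2 h. The fibroblast gene Col1a1 reached a group mean of 5.55 in this arm, and the summed level of 3 fibroblast markers was 3.81 to 9.04, against 2.97 to 3.87 in WT; its part in these values was not tested.

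**Figure D5:**
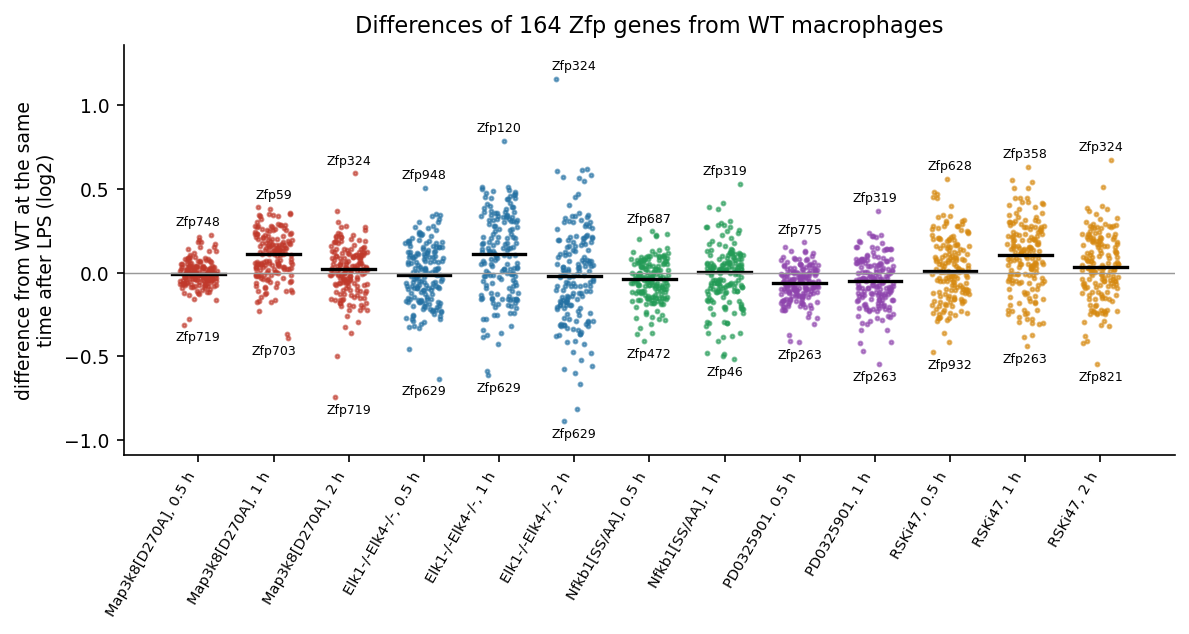
Log2 difference from WT at the same time of LPS (vertical axis) for the 164 Zfp genes in each arm and time (horizontal axis). Each point is a gene, black bars are medians, and the highest and lowest genes are named. Medians lie between -0.06 and 0.11, and Zfp324 in Elk1-/-Elk4-/- macrophages at 2 h is the one point past 1.

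Tests of the difference between responses, which need no WT library, separated some members. The 2 h response of Elk1-/-Elk4-/- macrophages was lower than that of Map3k8[D270A] macrophages for 41 Zfp genes (9.41% of all genes) and higher for 10 (9.40%), with a median of -0.11 against 0.02. Zfp46 differed by -0.72 and Zfp710 by 0.82. The response with RSKi47 was lower for 18 (9.42%) and higher for 24 (9.26%), with Zfp821 at -0.54 and Zfp719 at 0.52, and its median of 0.02 was close to that of all genes at 0.01. With the replicate number as a block the counts were 29 and 29 (14.8% and 15.1% of all genes), and without RSKi47 replicate 3 at 0 h 11 were lower. At 1 h the Nfkb1[SS/AA] response was lower than that of Map3k8[D270A] macrophages for 30 (4.22%) and higher for 1 (2.22%), led by Zfp46 at -1.15 and Zfp217 at -0.75. Zfp46 fell in Nfkb1[SS/AA] libraries from 8.14 to 8.30 (median 8.18) to 7.39 to 7.54 (median 7.50) and rose in Map3k8[D270A] libraries from 7.84 to 7.95 (median 7.90) to 8.23 to 8.54 (median 8.31). That count became 50 lower and 3 higher with the replicate number as a block (7.67% and 5.69% of all genes). Without Nfkb1[SS/AA] replicate 2 at 1 h it was 24 in all, 22 lower and 2 higher (2.95% and 1.90% of all genes). It was 47 in all without replicate 3, where the share of all genes was not taken.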

How the data were processed

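The authors deposited 1 table of normalized log2-scale expression values per gene and library, made per the labels with STAR 2.5.1b, RSEM 1.2.29 and DESeq2 1.10.1 on mm10 from strand-specific single-end reads. The table holds no counts, the sequencing depth behind each library cannot be read from it, and no counting interval is given. Values ran from -2.40 to 19.81, apart from 1 value above 25 that was treated as missing. The 164 members and all gene lists were chosen with earlier results of these data known.

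All libraries entered 1 limma fit (limma 3.58.1, R 4.3.3) with 1 mean per group, no covariate and moderated variances, after keeping genes at log2 of 10 or more in at least 3 libraries. P-values were Benjamini-Hochberg adjusted over the 11971 genes tested. The fit was tested on simulated data. Comparisons with the resting WT libraries, which chose the members, were not tested. Named members were the 3 largest rises and falls without overlap of libraries in 7 comparisons, members of known role and those beside the threshold. Others, such as Zfp60, Zfp157, Zfp472, Zfp12, Zfp131 and Zfp87, were chosen after their values were seen, as were the 2 h against 1 h comparisons within Map3k8[D270A], Elk1-/-Elk4-/- and RSKi47 arms, the counts over arms, the CArG box search, the motif shares among expressed genes and the differences of single genes from each WT replicate set.

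Libraries of the same replicate number deviated together in the comparisons tested within WT (lowest correlation 0.22 between 0.5 and 1 h, 0.25 between 1 and 2 h), Nfkb1[SS/AA] (0.14 between 0 and 1 h), RSKi47 (0.26 between 0 and 1 h, 0.35 between 0 and 2 h) and Map3k8[D270A] (0.27 and 0.12) libraries, and in Elk1-/-Elk4-/- libraries between 0 and 1 h (0.14), so the number pairs libraries there. The fit above has no block. Numbers shared with WT did not pair (lowest -0.45). Positions, 50-base sharing (a length chosen here) and promoters came from RefSeq and the annotation of GRCm38.p6, read with Python 3.11.15, and figures were drawn with matplotlib 3.10.9. Alternatives were no and stricter filters, median centring, trended robust variances, fewer libraries in the fit, the replicate number as a block, leaving out each replicate, the replicate sets and other level thresholds. Proteins were not analysed here.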

Additional observations from a re-analysis of the deposited data

Results flagged for a closer look

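The range of 98 groups of 4 to 6 library values was checked for 1 value far from the rest by Dixon's 95% limit, which chance passes in about 1 in 20 groups. It was passed in 5, about the share that chance gives. With RSKi47 at 2 h the median of the Zfp genes was 8.24 in replicate 1 and 8.14 in the next library. In Nfkb1[SS/AA] macrophages at 0.5 h it was 8.23 in replicate 1 and 8.17 in the next. Among single genes, Zfp316 in Elk1-/-Elk4-/- replicate 3 at 2 h was 6.10 (next 6.05), Zfp949 in replicate 4 of the same group was 8.77 (next 8.99), and Zfp362 in WT replicate 5 at 2 h was 7.88 (next 7.74).

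Responses that differed between arms by the limma test of the difference were also flagged. The 2 h response of Elk1-/-Elk4-/- macrophages differed from that of Map3k8[D270A] macrophages in 41 members downwards and 10 upwards (9.41% and 9.40% of all genes), led by Zfp46 (-0.72) and Zfp710 (0.82). With RSKi47 the counts were 18 and 24 (9.42% and 9.26% of all genes, shares not far from those of the members), led by Zfp821 (-0.54) and Zfp719 (0.52). The 1 h response of Nfkb1[SS/AA] macrophages differed in 30 members downwards and 1 upwards (4.22% and 2.22% of all genes), led by Zfp46 (-1.15).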

How the results depend on the processing

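Of 54 results, 51 kept their direction and their side of the threshold for every named gene under every alternative run (100 refits), and 907 of 910 values of named genes did so. The exceptions were Zfp703 (-0.21) and Zfp810 (0.33) in Map3k8[D270A] against WT at 2 h within WT replicates 7 to 9, a set with 1 WT library, and Zfp263 in WT at 2 against 1 h, which was called with the replicate block (-0.12).

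Asking for a 2-fold difference cut the counts of members called, by construction. Within arms they became 12 (Map3k8[D270A] 1 h), 10 (Map3k8[D270A] 2 h), 16 (Elk1-/-Elk4-/- 1 h), 15 (Elk1-/-Elk4-/- 2 h), 23 (Nfkb1[SS/AA] 1 h), 16 (PD0325901 1 h), 12 (RSKi47 1 h), 10 (RSKi47 2 h), 20 (WT 1 h against 0.5 h, 17 lower and 3 higher, against 0.819% and 2.29% of all genes) and 10 (WT 2 h against 1 h, 1 lower and 9 higher, against 2.15% and 4.40%). Against WT they became 0 in limma in each 1 and 2 h comparison except 1 for Elk1-/-Elk4-/- at 2 h, where the balance turned from lower to higher, and the differences between responses became 0, 0 and 1. Centring each library on its median left 42 calls for RSKi47 against Map3k8[D270A] but turned the split to 22 lower and 20 higher (10.8% and 7.26% of all genes). Within WT 7 to 9 and Map3k8[D270A] 4 to 6 the counts against WT were 20 at 1 h and 14 at 2 h, with fewer libraries. A threshold of 8 in the rule left 93 members, of which 51.6% were lower at 1 h in Map3k8[D270A] macrophages. A threshold of 6 gave 216, of which 65.7% were lower. The causes were not tested.

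Leaving out 1 replicate gave 34 (without WT replicate 6 at 2 h) to 45 calls for Map3k8[D270A] against WT at 2 h, 62 (without Nfkb1[SS/AA] replicate 2 at 1 h, 29 lower and 33 higher) to 71 calls for Nfkb1[SS/AA] against WT at 1 h, 24 to 47 for its response against that of Map3k8[D270A], and 31 (without RSKi47 replicate 4 at every time; 34 when single libraries were left out) to 42 for RSKi47 against Map3k8[D270A] at 2 h, where leaving out RSKi47 replicate 1 at 2 h turned the split to 22 lower and 17 higher (39 calls). Shares of all genes were taken only without Nfkb1[SS/AA] replicate 2 at 1 h. They were 20.7% lower and 19.1% higher against WT, and 2.95% and 1.90% for the response against that of Map3k8[D270A]. The other counts left out 1 replicate without a share of all genes to set beside them. With the replicate number as a block the Nfkb1[SS/AA] against Map3k8[D270A] count was 53 (7.67% of all genes lower and 5.69% higher). The block changed no other call of a named gene than that of Zfp263 and left within-arm counts at 116 to 148, with 141 for WT 1 h against 0.5 h (24.0% of all genes lower and 26.4% higher) and 132 for WT 2 h against 1 h (35.6% and 36.0%). The share of all genes called rose under the block too, at 1 h in Map3k8[D270A] to 24.9% and 27.5%. These 2 WT comparisons were added to the alternatives after seeing the data. Against WT the block was run for Map3k8[D270A], Nfkb1[SS/AA] and PD0325901, and these refits are among the 100. Shared numbers did not pair there, so the block cannot check those comparisons. For Map3k8[D270A] at 1 h it gave 19 lower and 65 higher (19.2% and 19.1% of all genes), against 6 and 64 (4.80% and 5.87%) without it. Elk1-/-Elk4-/- and RSKi47 share only number 4 with WT, so no block was possible there. A pseudocount was not run because the values are already logs.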
